A study of Homo sapiens with 9 samples.

Results

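The genes described here are 36 human genes of glycolysis and of the transcriptional response to low oxygen, read in the acute myeloid leukaemia line HL-60. They were chosen by symbol, as rows of a table of normalized read counts. Of the 36, 35 had a row among the 20637 genes of the table and 33 passed the filter for testing. EGLN3 was not analysed here. P4HA2 had 2 reads in all HRA libraries, 2 in all HRD libraries and 1 in all parental libraries, and ANGPTL4 had 0, 3 and 1 reads in the libraries of those lines, so both stayed below the filter.

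HL-60 is an established promyelocytic line. Polyadenylated RNA was sequenced from HRA cells, which are HL-60 cells resistant to the nucleoside analogue Ara-C (cytarabine) and kept in 100 nM of it, from HRD cells, which are resistant to the anthracycline DNR (daunorubicin) and kept in 30 nM of it, and from parental HL-60 cells, for which the labels name no drug. Each line had 3 biological replicates. Each resistant line has 1 name in the labels, which do not describe its replicates as separately derived lines, and resistance cannot be told apart from the drug in the medium. All lines were grown in the same serum-supplemented medium under 5% CO2, and the labels name no oxygen level.

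Glycolysis turns glucose into pyruvate, and LDHA turns pyruvate into lactate that leaves the cell through carriers such as SLC16A3. When oxygen is low, the prolyl hydroxylases of the EGLN family no longer mark the alpha subunits of the hypoxia-inducible factors (HIF) for destruction by VHL, and the factors bind a short DNA element beside many glycolytic genes. Leukaemia cells commonly run glycolysis also in the presence of oxygen.

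Recovered reads per library ran from 20822709 to 66563328. Replicate 1 had 47537926 reads in HRA, 66563328 in HRD and 58534264 in parental cells. Replicate 2 had 25225828, 22300023 and 27449119 reads in those lines, and replicate 3 had 26958509, 28967118 and 20822709. Replicate 1 was thus the deepest library of every line, and the part of depth in the replicate differences was not tested. Promyelocyte markers, of which MPO made up most, summed to between 274576 and 304843 normalized reads in HRA, 223496 and 279008 in HRD and 301339 and 344230 in parental libraries, although ELANE and KIT stayed under 10 in every library. Markers of other cell types, 11 of 18 with a row, summed to between 252 and 461 in HRA, 467 and 646 in HRD and 114 and 180 in parental libraries. From 4 to 7 of the 11 were at 0 in each library, and the endothelial and leukocyte gene PECAM1 and the keratin KRT8 were the 2 that passed the filter. In bulk RNA, fewer cells that express a gene and less RNA per cell cannot be told apart. For GAPDH, PGK1, PGAM1, ENO1, LDHA, TPI1, PKM, ALDOA and BNIP3, which have near-identical pseudogene copies, and for SLC2A3, which has the close paralogue SLC2A14, the counting could have split reads between copies, so their values are uncertain to that degree.

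The replicate 2 libraries carried higher normalized counts of most of these genes than replicates 1 and 3 in all 3 lines. Of the 33 tested members, 27 (81.8%) lay above both other replicates in HRA, in HRD and in parental cells, against 11.2% of all 12569 tested genes. None lay below both in all 3 lines, against 8.97% of all tested genes. The other 6 were PFKM, PFKL, PFKP, VEGFA, MXI1 and DDIT4. Averaged over the 3 lines, the median log2 difference of replicate 2 from the mean of replicates 1 and 3 was 0.48 over the members and 0.00 over all tested genes. Within a line the member median was 0.46 in HRA, 0.70 in HRD and 0.53 in parental cells. Replicate 2 was singled out with earlier results of these data known, and each line has 1 such library, so these values are a description with no test. The labels do not say what sets replicate 2 apart.

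**Figure D1:**
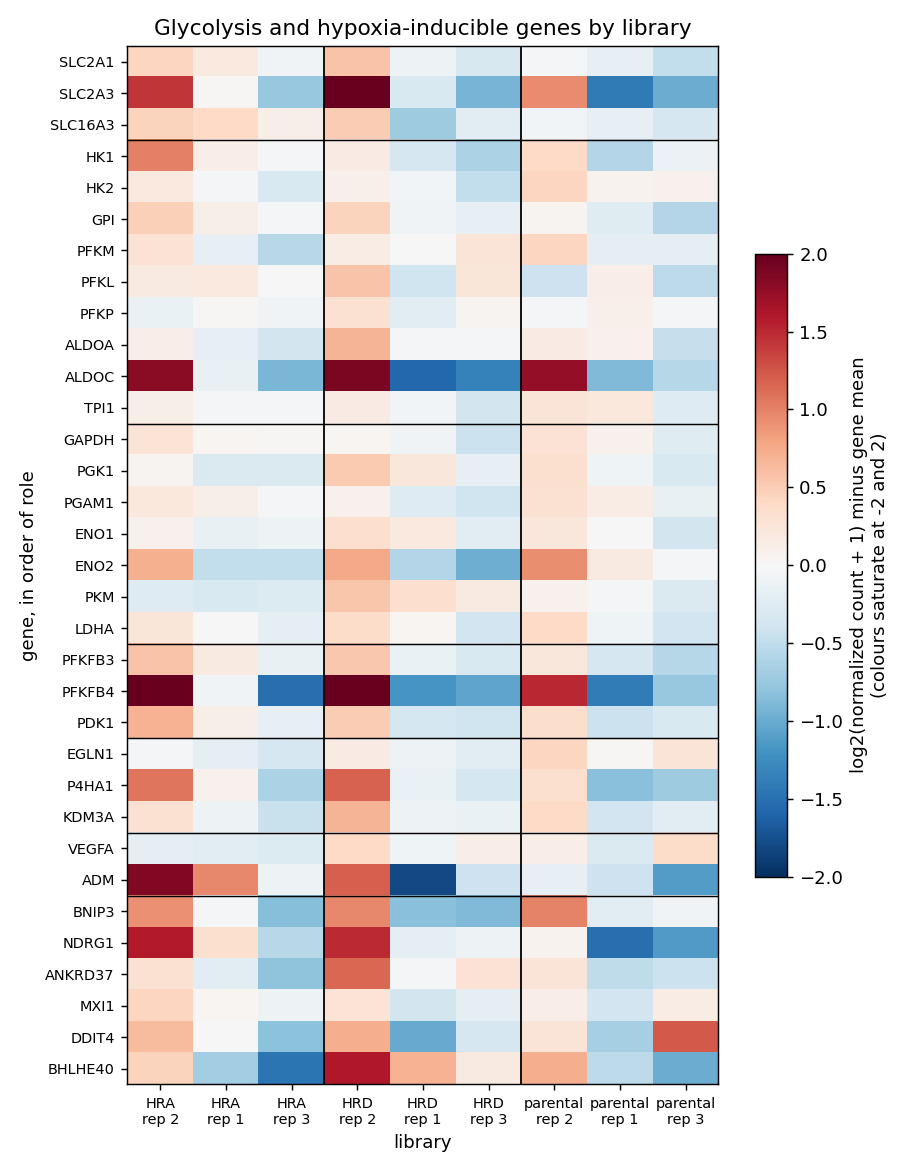
Each row is a tested gene in order of role and each column a library of HRA, HRD or parental cells, with replicate 2 left of replicates 1 and 3 in each line. The colour gives log2(normalized read count + 1) minus the gene's mean over the 9 libraries. The replicate 2 columns are the high ones in all 3 lines for 27 of the 33 genes.

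At least 2-fold above the mean of replicates 1 and 3 in every line stood 7 members, namely PFKFB4, ALDOC, SLC2A3, NDRG1, BHLHE40, BNIP3 and P4HA1. They are 21.2% of the members, against 0.366% of all tested genes, or 46 genes. Ranked by the smallest of the 3 line differences, they took places 2, 4, 10, 15, 29, 32 and 37 among all tested genes. Of the 7, 5 had a promoter entry in the RefSeq promoter table, and their 250 bases upstream of the start are shown because HIF binds a core of the letters ACGTG or GCGTG. The capitals mark these letters, which read CACGT or CACGC where they lie on the opposite strand. The windows, in build GRCh38.p14, are chr3:4979187-4979436 on the plus strand for BHLHE40, chr3:48556804-48557053 on the minus strand for PFKFB4, chr10:73096867-73097116 on the minus strand for P4HA1, chr10:131981924-131982173 on the minus strand for BNIP3 and chr17:28576896-28577145 on the minus strand for ALDOC, each read 5′ to 3′ along the gene.
PFKFB4: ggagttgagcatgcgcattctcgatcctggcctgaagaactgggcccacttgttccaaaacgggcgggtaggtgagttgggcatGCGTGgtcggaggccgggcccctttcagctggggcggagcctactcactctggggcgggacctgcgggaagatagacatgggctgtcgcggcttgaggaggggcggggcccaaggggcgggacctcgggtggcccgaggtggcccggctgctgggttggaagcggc
ALDOC: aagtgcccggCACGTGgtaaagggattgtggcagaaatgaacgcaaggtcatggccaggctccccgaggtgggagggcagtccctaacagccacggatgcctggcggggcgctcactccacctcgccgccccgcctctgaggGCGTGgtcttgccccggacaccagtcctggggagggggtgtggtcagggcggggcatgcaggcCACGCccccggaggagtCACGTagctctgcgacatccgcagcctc
BHLHE40: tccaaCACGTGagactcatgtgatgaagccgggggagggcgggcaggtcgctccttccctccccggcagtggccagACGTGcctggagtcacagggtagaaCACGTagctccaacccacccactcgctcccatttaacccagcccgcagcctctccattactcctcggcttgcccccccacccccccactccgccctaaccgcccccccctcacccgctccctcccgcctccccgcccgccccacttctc
BNIP3: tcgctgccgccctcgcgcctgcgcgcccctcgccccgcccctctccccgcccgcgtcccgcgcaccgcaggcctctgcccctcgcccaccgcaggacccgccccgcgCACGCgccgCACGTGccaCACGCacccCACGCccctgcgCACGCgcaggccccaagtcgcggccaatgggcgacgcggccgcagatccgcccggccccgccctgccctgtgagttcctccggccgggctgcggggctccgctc
P4HA1: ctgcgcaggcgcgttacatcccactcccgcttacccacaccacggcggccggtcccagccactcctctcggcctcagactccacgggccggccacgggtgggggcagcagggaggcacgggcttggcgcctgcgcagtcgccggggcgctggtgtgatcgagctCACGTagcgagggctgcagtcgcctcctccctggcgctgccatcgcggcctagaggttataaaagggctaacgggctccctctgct

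PFKFB4 and P4HA1 held 1 match each, BHLHE40 held 4, ALDOC 5 and BNIP3 6. A palindromic CACGTG counts on both strands, and BHLHE40, ALDOC and BNIP3 each had 1 such stretch. In PFKFB4 the match began 166 bases upstream of the start, and in P4HA1 86 bases upstream. The 6 matches of BNIP3 began between 143 and 104 bases upstream, closer together than the 5 of ALDOC, which began between 240 and 28 bases upstream. Those of BHLHE40 began between 245 and 149 bases upstream. Of the 30 tested members with an entry, 20 (66.7%) held at least 1 match, against 58.7% of 8788 promoters of tested genes and 50.5% of 15843 protein-coding promoters. These short letters are common, so the member share is given as a description. The reads were counted on another build, so genes and promoters were joined by symbol only.

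Among the carriers, SLC2A3, the high-affinity glucose transporter GLUT3, stood at 4779 against 1795 and 1049 (HRA), 7005 against 1439 and 929 (HRD) and 3408 against 661 and 890.3 (parental) in replicate 2 against replicates 1 and 3. Its log2 differences were 1.80 in HRA, 2.60 in HRD and 2.15 in parental cells, and replicate 2 did not overlap the other replicates in any line. SLC2A1, the widely expressed glucose transporter GLUT1, stood at 2144 against 1817 and 1509.5 (HRA), 2351 against 1474 and 1264 (HRD) and 1542 against 1415 and 1127 (parental). SLC16A3, the lactate exporter MCT4, stood at 4897 against 4705 and 3893 (HRA), 5079 against 2199 and 3097 (HRD) and 3443 against 3197 and 2846 (parental). Both were highest in replicate 2 of each line, by less than 1 on the log2 scale, with differences of 0.37 in HRA, 0.78 in HRD and 0.29 in parental cells for SLC2A1 and of 0.19 in HRA, 0.96 in HRD and 0.19 in parental cells for SLC16A3.

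**Figure D2:**
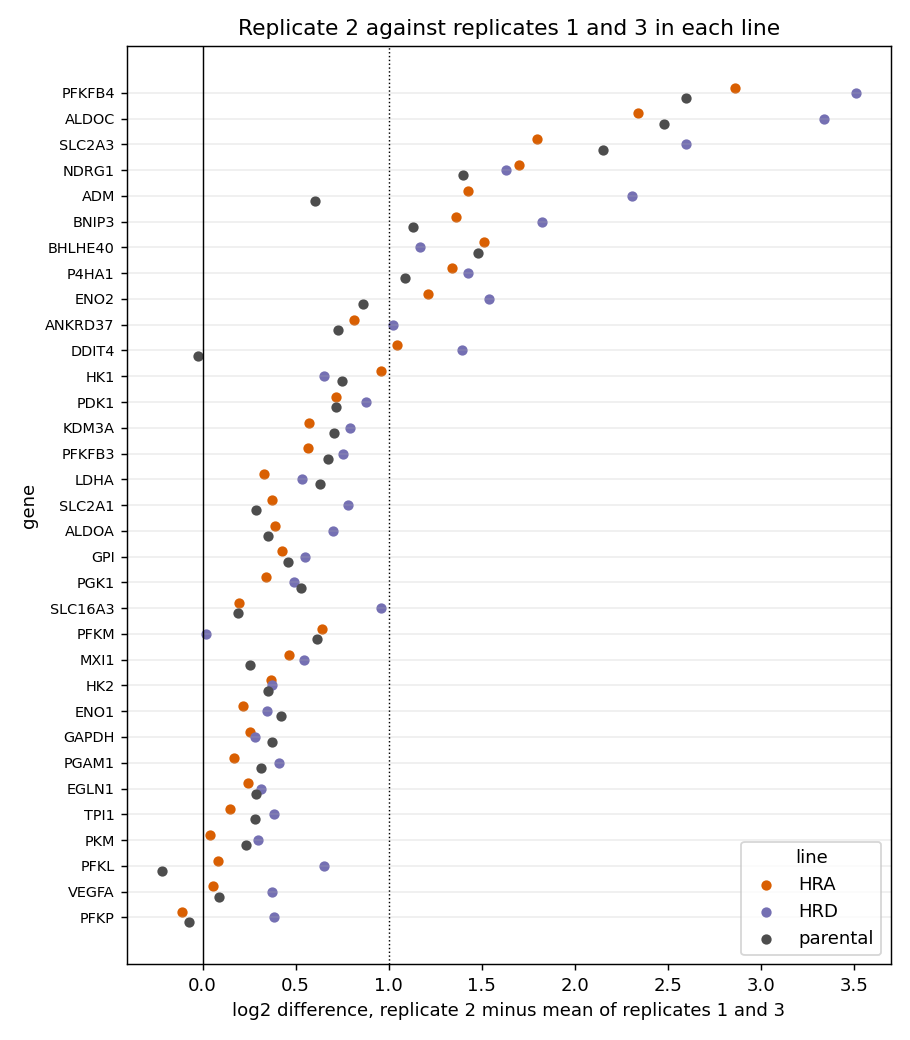
Each point is the log2 difference of replicate 2 from the mean of replicates 1 and 3 for 1 tested gene in 1 line. HRA, HRD and parental cells have different colours, and genes are sorted by their mean difference over the 3 lines. Most points lie right of 0 in all 3 lines, and PFKFB4 and ALDOC lie between 2.34 and 3.51.

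In upper glycolysis, from hexokinase to triose phosphate isomerase, 6 of 9 enzymes lay above both other replicates in every line. ALDOC, the aldolase isozyme best known from brain, stood at 2712 against 695 and 411 (HRA), 2847 against 260.4 and 302 (HRD) and 2612 against 419 and 523 (parental), with log2 differences of 2.34 in HRA, 3.34 in HRD and 2.48 in parental cells. ALDOA, the isozyme of muscle and most other cells, stood at 35685 against 29311 and 25262 (HRA), 52114 against 31799 and 32269 (HRD) and 36577 against 34523 and 23837 (parental), with differences of 0.39 in HRA, 0.70 in HRD and 0.35 in parental cells. Replicate 2 was thus above both others for both aldolases, with a wider gap for ALDOC in each line.

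HK1, a hexokinase that adds the first phosphate to glucose, stood at 810.3 against 442 and 394 (HRA), 452 against 318 and 259.7 (HRD) and 531 against 269 and 370.2 (parental). HK2, the hexokinase that many tumours use, stood at 5837 against 4955 and 4123 (HRA), 5450.0 against 4904 and 3609 (HRD) and 6877 against 5343 and 5414 (parental). Both hexokinases were highest in replicate 2 of every line. GPI, which interconverts glucose and fructose phosphates, stood at 20125 against 15825 and 14123 (HRA), 19694 against 13888 and 13024 (HRD) and 15084 against 12356 and 9732 (parental). TPI1, which interconverts the triose phosphates, stood at 31617 against 28351 and 28711 (HRA), 32907 against 28203 and 22604 (HRD) and 34994 against 33890.1 and 24504 (parental), the narrowest of these 4 gaps in HRA and parental cells, with log2 differences of 0.15 in HRA, 0.38 in HRD and 0.28 in parental cells.

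The 3 phosphofructokinase subunits, which catalyse the committed step of the pathway, did not share the pattern. PFKL, the liver-type subunit, stood at 2504 against 2517 and 2219 (HRA), 3285 against 1673 and 2608 (HRD) and 1654 against 2419.9 and 1527 (parental), so replicate 2 was highest in HRD cells and lay between the others in HRA and parental cells. PFKP, the platelet-type subunit, stood at 1369 against 1524 and 1433 (HRA), 1853 against 1289.8 and 1564 (HRD) and 1466 against 1615 and 1475 (parental), so replicate 2 was lowest in HRA and parental cells. PFKM, the muscle-type subunit, stood at 87.9 against 64.2 and 48.7 (HRA), 79.8 against 71.9 and 86.6 (HRD) and 96.9 against 62.9 and 63.0 (parental), and in HRD cells replicate 3 was higher than replicate 2.

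All 7 enzymes of lower glycolysis, including LDHA, lay above both other replicates in every line. ENO2, the neuronal enolase, stood at 819.8 against 353 and 353 (HRA), 842 against 331 and 252 (HRD) and 953 against 563 and 487 (parental), with log2 differences of 1.21 in HRA, 1.54 in HRD and 0.86 in parental cells. ENO1, the enolase of most cells, stood at 140790 against 119255 and 122858 (HRA), 167317 against 151730 and 113942 (HRD) and 155761 against 131336 and 102617 (parental), with differences of 0.22 in HRA, 0.35 in HRD and 0.42 in parental cells. As with the aldolases, replicate 2 led for both isozymes and the gap was wider for ENO2 in each line.

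GAPDH, which oxidises glyceraldehyde phosphate, stood at 257320 against 217127 and 214529 (HRA), 217152 against 201617 and 157840 (HRD) and 258857 against 223730 and 178713 (parental). PGK1, which makes the first ATP of the pathway's payoff phase, stood at 40056 against 31699 and 31428 (HRA), 55523 against 45256 and 34440.4 (HRD) and 48364 against 36185 and 31129 (parental). PGAM1, the phosphoglycerate mutase, stood at 5556 against 5227 and 4676 (HRA), 5109.6 against 4043 and 3662 (HRD) and 5974 against 5329 and 4336 (parental). Each was highest in replicate 2, with log2 differences between 0.17 and 0.53. LDHA, the lactate dehydrogenase subunit favoured by glycolytic cells, stood at 83789 against 70828 and 62822 (HRA), 91452 against 73335 and 54382 (HRD) and 93818 against 67377 and 54268 (parental). PKM, the pyruvate kinase of most tissues, stood at 34201 against 32859 and 33755 (HRA), 59858 against 51469 and 46135 (HRD) and 43108 against 40325 and 33431 (parental). LDHA differed by 0.33 in HRA, 0.53 in HRD and 0.63 in parental cells on the log2 scale, and PKM by 0.04 in HRA, 0.30 in HRD and 0.23 in parental cells, so that the PKM libraries of HRA cells lay close together.

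The 3 regulators of flux through the pathway were all highest in replicate 2. PFKFB4, which makes and removes fructose 2,6-bisphosphate, the activator of phosphofructokinase, stood at 947 against 215 and 78.0 (HRA), 1187 against 98.7 and 108 (HRD) and 643 against 84.2 and 132 (parental). Its log2 differences of 2.86 in HRA, 3.51 in HRD and 2.60 in parental cells were the largest of the 33 tested members in each line. PFKFB3, a related enzyme that mainly makes the same activator, stood at 1932 against 1462 and 1164 (HRA), 1877 against 1177 and 1049 (HRD) and 1510.3 against 1027 and 874 (parental), with differences of 0.57 in HRA, 0.76 in HRD and 0.67 in parental cells. PDK1, the kinase that shuts pyruvate dehydrogenase and so limits the entry of pyruvate into the citric acid cycle, stood at 1963 against 1313 and 1084 (HRA), 1725 against 952 and 924 (HRD) and 1551 against 901 and 986 (parental), with differences of 0.72 in HRA, 0.88 in HRD and 0.72 in parental cells.

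**Figure D3:**
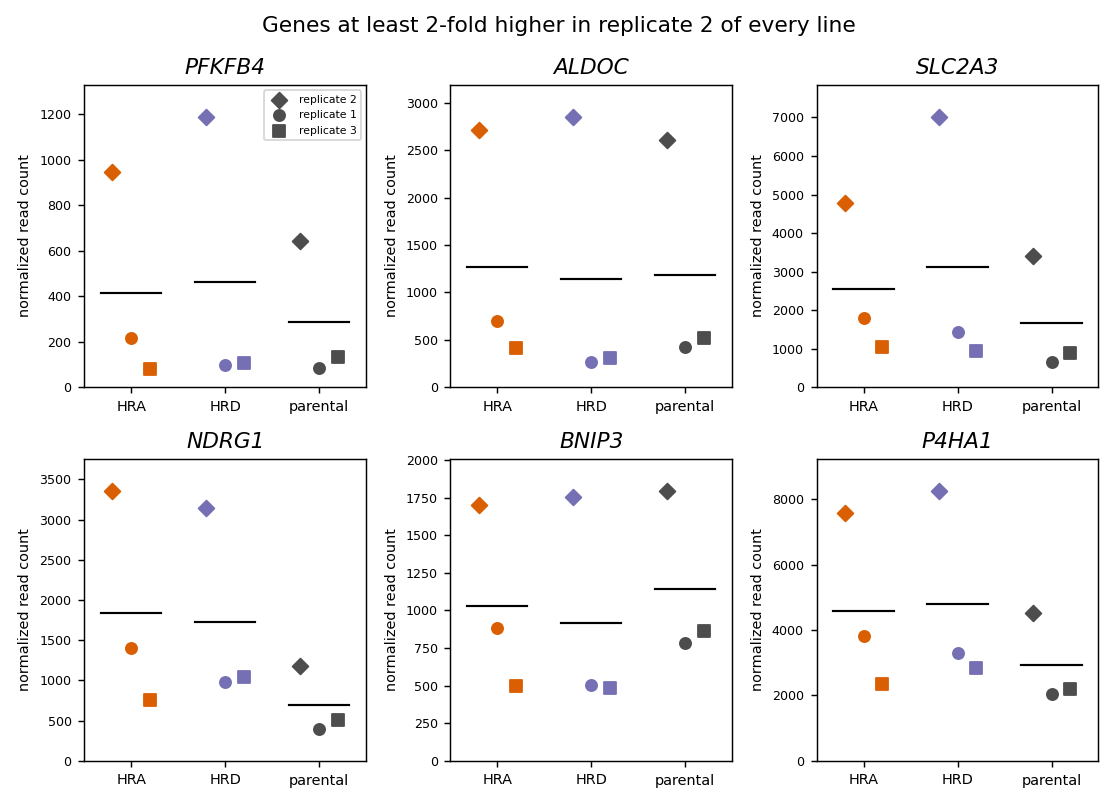
Normalized read counts (y axis, linear from 0) of 6 of the 7 genes that stood at least 2-fold higher in replicate 2 of every line, with HRA, HRD and parental cells on the x axis. Symbols mark the replicates, with replicate 2 at the left of each line, and the line marks the mean of 3. For PFKFB4 the replicate 2 libraries stood at 947 in HRA, 1187 in HRD and 643 in parental cells, above all other libraries.

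Among the hydroxylases, P4HA1, a catalytic subunit of collagen prolyl 4-hydroxylase, stood at 7588 against 3827 and 2343 (HRA), 8244 against 3297 and 2851 (HRD) and 4511 against 2038 and 2205 (parental), with log2 differences of 1.34 in HRA, 1.43 in HRD and 1.09 in parental cells. EGLN1, the main oxygen sensor that hydroxylates HIF alpha subunits and itself a HIF target, stood at 2045 against 1811 and 1646 (HRA), 2330.3 against 1945 and 1806 (HRD) and 2803 against 2112 and 2505 (parental). KDM3A, a histone H3 lysine 9 demethylase, stood at 2381 against 1802 and 1424 (HRA), 3105 against 1810.2 and 1773 (HRD) and 2561 against 1479 and 1667 (parental). Replicate 2 was above both others for all 3, by at least 0.24 for EGLN1 and at least 0.57 for KDM3A.

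Of the secreted factors, ADM, which encodes the vasodilator peptide adrenomedullin, stood at 112 against 60.0 and 28.0 (HRA), 70.8 against 7.94 and 22.4 (HRD) and 27.0 against 22.4 and 13.5 (parental). Its parental difference of 0.60 rests on 22 reads in replicate 2 against 40 and 9 reads in replicates 1 and 3, as counts not scaled for depth. VEGFA, the angiogenic growth factor, stood at 1953 against 1922 and 1841 (HRA), 2936 against 2098 and 2448 (HRD) and 2434 against 1824 and 2872 (parental), so the highest parental library was replicate 3.

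Of the 6 intracellular genes of the response, 4 lay above both other replicates in every line. BNIP3, a mitochondrial membrane protein that drives mitophagy, stood at 1702 against 883 and 497 (HRA), 1756 against 503 and 487 (HRD) and 1794 against 781 and 860.3 (parental), with log2 differences of 1.36 in HRA, 1.82 in HRD and 1.13 in parental cells. NDRG1, a stress-responsive cytoplasmic protein, stood at 3354 against 1399.5 and 759 (HRA), 3141 against 985 and 1043 (HRD) and 1179 against 393 and 507 (parental), with differences of 1.70 in HRA, 1.63 in HRD and 1.40 in parental cells. BHLHE40, a transcriptional repressor, stood at 863 against 394 and 230.3 (HRA), 1943 against 1033 and 722 (HRD) and 1054 against 444 and 321 (parental), with differences of 1.51 in HRA, 1.17 in HRD and 1.48 in parental cells. All 3 cleared 1 on the log2 scale in every line. ANKRD37, a small ankyrin repeat protein and known HIF target, stood at 43.3 against 30.0 and 19.5 (HRA), 78.3 against 33.7 and 42.7 (HRD) and 41.7 against 24.1 and 25.5 (parental), on low counts. MXI1, an antagonist of MYC, stood at 841 against 642 and 579.9 (HRA), 758 against 486 and 555 (HRD) and 687 against 479.8 and 692 (parental), and parental replicate 3 was marginally above replicate 2. DDIT4, an inhibitor of mTORC1 signalling, stood at 5116 against 3280.0 and 1875 (HRA), 5436 against 1634 and 2614 (HRD) and 3937 against 2088 and 7690.4 (parental), so in parental cells replicate 3 was the high library.

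Further genes of the same pathways were read from lists of non-members. Of 27 tested hypoxia-inducible genes, 16 lay above both other replicates in every line and 1, WSB1, lay below. Over all tested genes, 11.2% lay above and 8.97% below. PPFIA4 differed by 2.28 in HRA, 2.24 in HRD and 2.62 in parental cells, TMEM45A by 2.46 in HRA, 1.97 in HRD and 1.66 in parental cells, and BNIP3L, a mitophagy receptor related to BNIP3, by 1.38 in HRA, 1.81 in HRD and 1.30 in parental cells on the log2 scale. Of 12 tested genes that carry out oxygen sensing, none lay above or below both in every line. HIF1A, the best known HIF alpha subunit, stood at 928 against 958 and 811 (HRA), 1169 against 1184 and 1098 (HRD) and 1034 against 955 and 1085 (parental), and VHL stood at 3329 against 3479 and 3385 (HRA), 2311 against 2905 and 2590.4 (HRD) and 3434 against 3406 and 3543 (parental). HIF1A had log2 differences of 0.07 in HRA, 0.04 in HRD and 0.02 in parental cells, whereas VHL was lowest in replicate 2 of HRA and HRD cells and between the other replicates in parental cells. HIF alpha subunits are controlled chiefly through protein stability, which these RNA data do not measure.

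Of 17 tested genes of pyruvate entry and the pentose phosphate pathway, 4 lay above both others in every line, namely PDK3, PDP1, MPC2 and PGD. The shares over all tested genes were 11.2% above and 8.97% below, for this list and the next ones. Of 10 tested further isozymes and regulators of glycolysis, 0 lay above and 1, TIGAR, lay below. Of 12 tested genes of the ATF4 and stress response, none lay above or below both in every line. Counts of 0 or 1 in these short lists are not read as particular to them. Replicate 2 was highest for 7 of the 12 stress genes in HRA, 9 in HRD and 0 in parental cells. Over all 12569 tested genes it was highest for 4825, 4194 and 4086 in the same order. Promyelocyte markers summed to 274576 in HRA replicate 2 against 304843 and 286918, 279008 in HRD replicate 2 against 223496 and 268121, and 301339 in parental replicate 2 against 344230 and 329475. Markers of other cell types summed to 461 in HRA replicate 2 against 288 and 252, 646 in HRD replicate 2 against 467 and 540, and 114 in parental replicate 2 against 116 and 180. Their part in the replicate 2 differences was not tested.

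In the comparison of HRA with parental cells, the question is which of these genes differ in the Ara-C-resistant line. None of the 33 rose and 1 fell, EGLN1, in limma with Benjamini-Hochberg adjustment over all 12569 tested genes, at an adjusted p below 0.05. Of all tested genes, 9.13% rose and 6.10% fell. At an unadjusted p below 0.05, limma gave 2 members higher, edgeR's quasi-likelihood test 4 and DESeq2 4, and none of them passed adjustment. The median log2 fold change was −0.00 over the tested members and −0.01 over all tested genes.

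EGLN1 stood at 1811, 2045 and 1646 in HRA libraries, against 2112, 2803 and 2505 in parental libraries. All HRA values lay below all parental values. The means were 1834 ± 201 and 2473 ± 347 in HRA and parental cells (SD, n = 3 each). The log2 fold change was −0.43 ± 0.13 (SE), with a limma adjusted p of 0.0445 that passed narrowly. Without HRA replicate 1, 2 or 3 the adjusted p was 0.125, 0.0534 or 0.140, and without parental replicate 2 or 3 it was 0.143 or 0.106. It was 0.0933 without all replicate 2 libraries and 0.0607 with no filter on low values. The 20 nearest tested coding genes around EGLN1 on chromosome 1, 10 on each side, had a median log2 fold change of −0.43 in the same comparison, against −0.01 for the whole chromosome. The value of EGLN1 was close to that of its neighbours, and the part of a regional change was not tested.

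**Figure D4:**
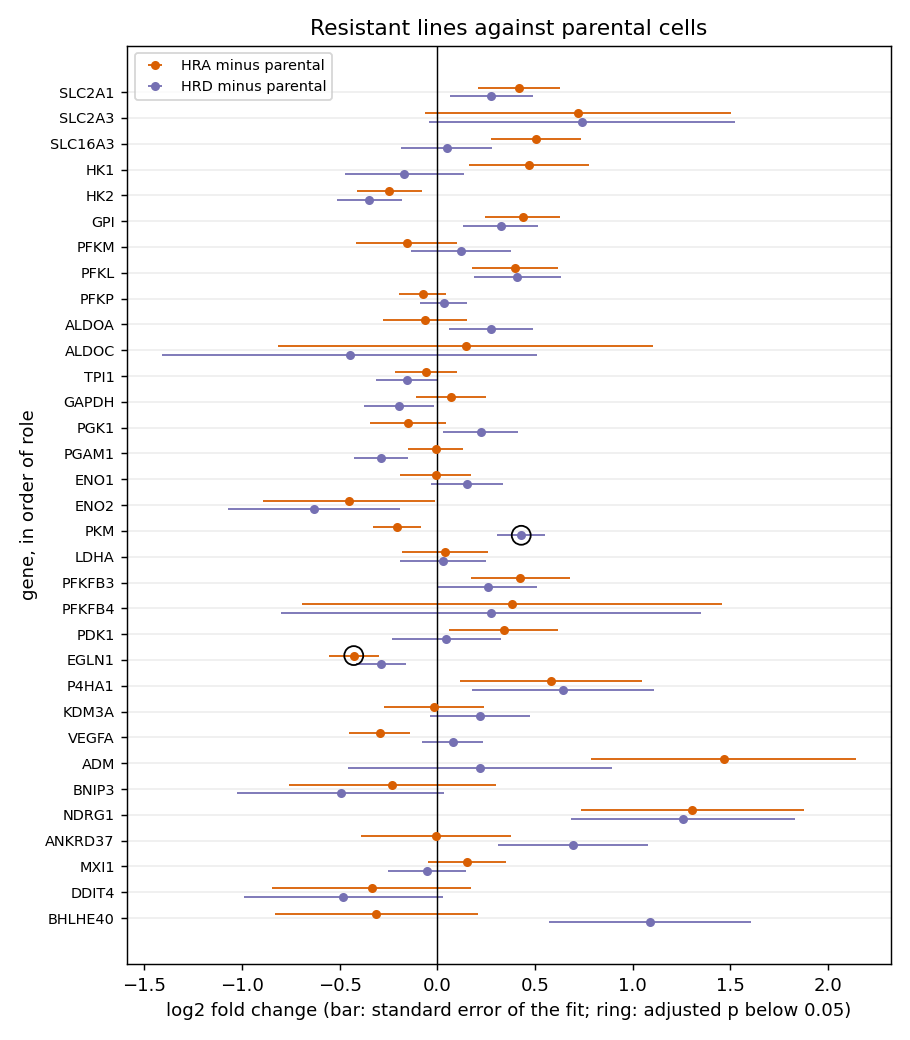
The x axis gives the log2 fold change of HRA and of HRD cells against parental cells for each tested gene, in order of role, with bars for the standard error of the limma fit and rings for an adjusted p below 0.05. EGLN1 in HRA at −0.43 and PKM in HRD at 0.43 carry the 2 rings, and the bars of ALDOC, PFKFB4, SLC2A3, NDRG1 and BHLHE40 are among the widest.

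Deviations of same-numbered HRA and parental replicates correlated at 0.22, 0.38 and 0.14, so a fit that takes that number as a block stands beside this comparison. These low values do not establish that the libraries were paired. The blocked fit used all 9 libraries. Its block and its SE thus also drew on the HRD libraries, whose numbers were not taken as a pairing. In that fit 8 members (24.2%) were higher in HRA cells, against 12.5% of all tested genes. EGLN1 was again the 1 member lower, against 9.56% of all tested genes, with an adjusted p of 0.00790 (range 0.00790 to 0.143 over the alternatives). NDRG1 stood at 1399.5, 3354 and 759 in HRA libraries, against 393, 1179 and 507 in parental libraries in replicates 1, 2 and 3, higher in 3 of 3 numbered pairs though the groups overlap. Its log2 fold change was 1.31 ± 0.57, against 0.74 without HRA replicate 2, with an adjusted p of 0.145 in limma without the block and 0.00199 with it (range 0.00199 to 0.445). Chromosome 8, which carries NDRG1, had a median log2 fold change of 0.49 over its tested coding genes, and the 20 neighbours of NDRG1 had a median of 0.45. The NDRG1 estimate lay above both medians with a wide SE, and the part of a regional change was not tested.

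The other 7 of the blocked fit were smaller. By log2 fold change with SE in that limma fit, they were SLC2A3 at 0.72 ± 0.22, P4HA1 at 0.58 ± 0.14, HK1 at 0.47 ± 0.15, GPI at 0.44 ± 0.07, PFKFB3 at 0.43 ± 0.08, SLC2A1 at 0.42 ± 0.11 and PDK1 at 0.34 ± 0.09. Adjusted p-values in that limma fit were 0.0460, 0.0154, 0.04997, 0.00298, 0.00538, 0.0214 and 0.0290 in the same order, and without the block they were 0.564, 0.422, 0.324, 0.145, 0.275, 0.200 and 0.437. Without HRA replicate 2 the log2 fold changes of these 7 genes were 0.12, 0.14, 0.15, 0.29, 0.24, 0.29 and 0.10 in the same order, and without parental replicate 2 they were 1.44, 0.95, 0.72, 0.59, 0.65, 0.52 and 0.58. Leaving out 1 of the other HRA or parental libraries gave 0.19 to 1.21, so their size depended on single libraries. Over the alternatives, the highest adjusted p of each ran from 0.412 to 0.948. GPI stood at 15825, 20125 and 14123 in HRA libraries, against 12356, 15084 and 9732 in parental libraries, and its neighbours on chromosome 19 had a median of 0.25. SLC2A1 stood at 1817, 2144 and 1509.5 in HRA libraries, against 1415, 1542 and 1127 in parental libraries. For GPI and for SLC2A1, 2 of the 3 HRA libraries exceeded every parental library, and HRA replicate 3 lay within the parental range.

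Without the replicate 2 libraries of all lines, 1 member passed in HRA against parental cells, against 3.83% of all tested genes higher and 1.84% lower. This was NDRG1, higher by 1.21 ± 0.24 with a limma adjusted p of 0.0195. SLC16A3 stood at 4705, 4897 and 3893 in HRA libraries, against 3197, 3443 and 2846 in parental libraries, and the lines did not overlap. Its log2 fold change was 0.51 ± 0.23 with a limma adjusted p of 0.160, and 0.0134 in a fit of these 2 lines alone (range 0.0134 to 0.348). ADM had the widest difference among the members, at 1.47 ± 0.68 on the log2 scale, with 60.0, 112 and 28.0 in HRA libraries and 22.4, 27.0 and 13.5 in parental libraries and a limma adjusted p of 0.165, and it did not pass.

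In HRD against parental cells, 1 member rose, PKM, and 0 fell in limma after adjustment. Of all tested genes, 10.7% rose and 12.0% fell. At an unadjusted p below 0.05, 1 member was lower by limma, 1 by edgeR and 2 by DESeq2, of which 0 passed adjustment. The median log2 fold change was 0.12 over the tested members and 0.01 over all tested genes.

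PKM, which makes pyruvate and ATP in the last step of glycolysis, stood at 51469, 59858 and 46135 in HRD libraries, against 40325, 43108 and 33431 in parental libraries. All HRD values lay above all parental values. The means were 52487 ± 6918 in HRD and 38955 ± 4982 in parental cells (SD, n = 3 each). The log2 fold change was 0.43 ± 0.12, or 1.35-fold, with a limma adjusted p of 0.0264. The adjusted p was 0.0509 and 0.0916 without parental replicate 1 or 3, 0.101 without HRD replicate 2, 0.104 without all replicate 2 libraries and 0.0735 with these 2 lines alone, within a range of 0.00282 to 0.104 over the alternatives. The 20 neighbours of PKM on chromosome 15 had a median of 0.05. The table counts the gene as a whole, so the isoforms PKM1 and PKM2 were not separated.

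NDRG1 stood at 985, 3141 and 1043 in HRD libraries, against 393, 1179 and 507 in parental libraries. The lines overlap, since HRD replicates 1 and 3 lay below parental replicate 2. Its log2 fold change was 1.26 ± 0.57 with a limma adjusted p of 0.141 over all libraries. Without replicate 2 it was 1.18 ± 0.24 with an adjusted p of 0.0115 (range 0.00144 to 0.426 over the alternatives). BHLHE40 stood at 1033, 1943 and 722 in HRD libraries, against 444, 1054 and 321 in parental libraries, and the lines overlap. Its log2 fold change was 1.09 ± 0.52 with a limma adjusted p of 0.159 and, without replicate 2, 1.19 ± 0.27 with 0.0173 (range 0.000132 to 0.428).

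ENO2 stood at 331, 842 and 252 in HRD libraries, against 563, 953 and 487 in parental libraries. The lines overlap through HRD replicate 2, with a log2 fold change of −0.63 ± 0.44 and a limma adjusted p of 0.343, and of −0.85 ± 0.18 with 0.0127 without replicate 2 (range 0.0103 to 0.720). Without replicate 2, 2 members were higher and 1 was lower, against 5.89% and 5.81% of all tested genes. SLC2A3 stood at 1439, 7005 and 929 in HRD libraries, against 661, 3408 and 890.3 in parental libraries. Its log2 fold change of 0.74 ± 0.78 did not pass (limma adjusted p = 0.549), and it was −0.13 without HRD replicate 2 and 0.59 without replicate 2 of all lines.

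**Figure D5:**
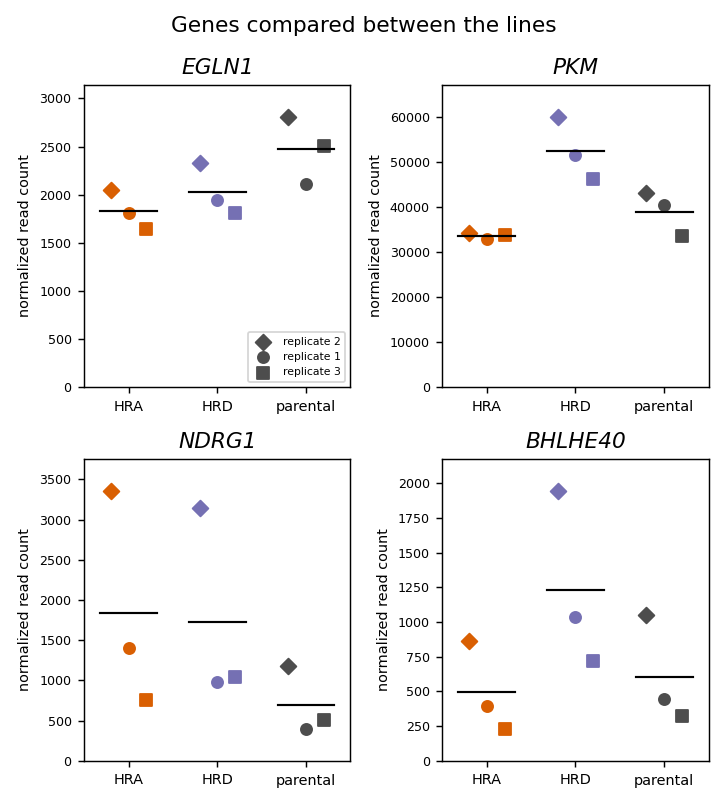
Normalized read counts (y axis, linear from 0) of EGLN1, PKM, NDRG1 and BHLHE40 in HRA, HRD and parental cells, with a symbol for each replicate and a line for the mean of 3. EGLN1 in HRA and PKM in HRD do not overlap the parental libraries, whereas for NDRG1 and BHLHE40 the replicate 2 libraries stand far above the others of each line.

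Between the resistant lines, HRD against HRA, 1 member rose, again PKM, and 0 fell after adjustment in limma. Of all tested genes, 13.9% rose and 16.2% fell. At an unadjusted p below 0.05, limma gave 0 members lower, edgeR 1 and DESeq2 1. The median log2 fold change was −0.10 over the tested members and 0.00 over all tested genes. PKM stood at 51469, 59858 and 46135 in HRD libraries, against 32859, 34201 and 33755 in HRA libraries. The 3 HRA values lay close together and below every HRD value. The log2 fold change was 0.64 ± 0.12, or 1.55-fold, with a limma adjusted p of 0.00301. It passed under every alternative run, with a highest adjusted p of 0.0333 without replicate 2.

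BHLHE40 stood at 1033, 1943 and 722 in HRD libraries, against 394, 863 and 230.3 in HRA libraries. Its log2 fold change was 1.40 ± 0.52 with a limma adjusted p of 0.0615, and 1.52 ± 0.27 with 0.00491 without replicate 2 (range 2.88e-05 to 0.209). SLC16A3 stood at 2199, 5079 and 3097 in HRD libraries, against 4705, 4897 and 3893 in HRA libraries, and HRD replicate 2 alone was as high as the HRA libraries. Over all libraries its log2 fold change was −0.46 ± 0.23 with a limma adjusted p of 0.155, which did not pass, and it was −0.17 without HRD replicate 1. Without replicate 2 it was −0.71 ± 0.17 with a limma adjusted p of 0.0192 (range 0.00477 to 0.527). ALDOC had a log2 fold change of −0.59 ± 0.96 over all libraries with a limma adjusted p of 0.675, which did not pass, and its sign turned to 0.19 without HRA replicate 2 and 0.02 without HRD replicate 1. Without replicate 2 of all lines it was −0.93 ± 0.24 with 0.0279 (range 0.0279 to 0.994). PKM and BHLHE40 were higher and SLC16A3 and ALDOC lower in that limma fit, 2 members each way, against 6.09% of all tested genes higher and 8.43% lower.

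Of the markers of other cell types, 2 passed the filter on low values. PECAM1 rose by 2.26 ± 0.30 in HRA and 2.26 ± 0.30 in HRD cells and KRT8 by 2.09 ± 0.23 in HRD cells, each against parental cells on the log2 scale, and their part in the line differences was not tested. The non-member lists gave calls between the lines among the regulators. Of 12 tested genes of oxygen sensing, 2 rose and 0 fell in HRA cells, against 9.13% and 6.10% of all tested genes. In HRD cells 2 rose and 3 fell, against 10.7% and 12.0%, with EPAS1 left out of the count because it reached the minimum value in HRD libraries alone. The list medians were −0.07 in HRA and 0.09 in HRD cells on the log2 scale, each against parental cells. CITED2, which competes with HIF for its coactivators, rose by 0.65 ± 0.10 in HRA and by 0.90 ± 0.10 in HRD cells, with limma adjusted p-values of 0.00211 and 0.000119. ELOC, a subunit of the VHL ligase that lies on chromosome 8, rose by 0.36 ± 0.08 in HRA cells. In HRD cells ARNT, the shared beta subunit, rose by 0.37 ± 0.11, whereas HIF1AN, the asparaginyl hydroxylase that restrains HIF, VHL and the coactivator CREBBP had log2 fold changes of −0.59 ± 0.08, −0.42 ± 0.09 and −0.33 ± 0.09. EPAS1, another HIF alpha subunit, averaged 23.8 ± 18.7 in HRD and 1.06 ± 0.923 in parental cells (SD, n = 3 each), a low level. HIF1A did not pass against parental cells in either line and was higher in HRD than in HRA cells by 0.36 ± 0.09 with a limma adjusted p of 0.0157. In HRD against HRA cells, 4 genes of this list rose and 3 fell with EPAS1 left out, against 13.9% and 16.2% of all tested genes.

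Of 27 tested further hypoxia-inducible genes, 4 rose and 1 fell in HRA cells (14.8% and 3.70%), against 9.13% and 6.10% of all tested genes. In HRD cells 2 rose and 1 fell, against 10.7% and 12.0%, with HMOX1 left out of the count because it too reached the minimum value in HRD libraries alone. The list median was 0.11 in both comparisons, against −0.01 and 0.01 over all tested genes in HRA and HRD cells, and nothing particular to the list is read from these counts. CXCR4, the chemokine receptor that holds leukaemia cells in the marrow niche, rose by 0.85 ± 0.20 in HRA and 0.79 ± 0.20 in HRD cells. PLOD1, a collagen lysyl hydroxylase, rose 2-fold in HRA and 1.7-fold in HRD cells, with limma adjusted p-values of 0.00988 and 0.0241. CXCR4 and PLOD1 were also among the 16 that stood above both other replicates in replicate 2 of every line. HILPDA and GYS1 rose and STC2 fell in HRA cells, and ERO1A fell in HRD cells. HMOX1, a haem-degrading enzyme, averaged 35.4 ± 14.5 in HRD and 1.72 ± 2.01 in parental cells (SD, n = 3 each). In HRD against HRA cells 1 gene of this list rose and 3 fell with HMOX1 left out, against 13.9% and 16.2% of all tested genes. The 3 comparisons share libraries, so their values stand side by side and are not counted as repeats of each other.

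Of 17 tested genes of pyruvate entry and the pentose phosphate pathway, 4 rose and 0 fell in HRD cells (23.5% and 0%), against 10.7% and 12.0% of all tested genes. In HRA cells 0 rose and 1, PDP2, fell (5.88%), against 9.13% and 6.10%. The list median was 0.03 in HRA and 0.15 in HRD cells. PGD, a dehydrogenase of the pentose phosphate pathway, rose by 0.59 ± 0.11, the pyruvate carrier MPC1 by 0.34 ± 0.10 and the pyruvate dehydrogenase subunit PDHB by 0.28 ± 0.08 on the log2 scale in HRD cells, with limma adjusted p-values of 0.00281, 0.0293 and 0.0348 in the same order. Of 10 tested further isozymes and regulators of glycolysis, 0 rose and 4 fell in HRD cells against 10.7% and 12.0% of all tested genes, namely the lactate carrier SLC16A7 at −0.73 ± 0.08, the bisphosphatase TIGAR at −0.53 ± 0.12, the mitochondrial phosphatase PGAM5 at −0.36 ± 0.09 and LDHB, the other main lactate dehydrogenase subunit, at −0.35 ± 0.10, and SLC16A7 alone fell in HRA cells. Of 12 tested ATF4 and stress genes, 0 passed in HRA cells and 1, ASNS, fell in HRD cells, by limma. In HRD against HRA cells, 5 genes of the pyruvate and pentose list rose and 1 fell, against 13.9% and 16.2% of all tested genes. On the isozyme list 0 rose and 2 fell, and on the ATF4 list 0 rose and 1 fell.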

How the data were processed

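Per the labels, polyadenylated RNA of 9 HL-60 libraries (3 each of HRA, HRD and parental cells) was sequenced from stranded libraries. The submitters' processing notes list build hg19 and the tools HTSeq 0.11.1, Cufflinks 2.2.1, DESeq2, TopHat2 2.1.1, Picard and Bowtie2 2.3.5.1, with no role. Which annotation was used, and whether counting used strand, is not given in the sources used here, so reads of overlapping and antisense genes may be mixed. The signal the authors deposited holds reads per gene after division by each library's size factor. All values (100%) were whole multiples of 1 constant per library within 0.001, so whole reads were recovered, and a value of 3 reads is 1.49 to 4.52 normalized reads.

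Tested were the 12569 genes that reached 10 in 3 or more libraries. All 9 libraries entered 1 model of log2(value + 1) in R 4.3.3, with limma 3.58.1 and its variance trend. Fold changes are on that scale, which understates changes of low genes. A gene was called where its p, adjusted over the 12569 genes by Benjamini-Hochberg, fell under 0.05. Errors are SE for log2 fold changes and SD for means. The labels call the samples biological replicates and do not describe them as separately derived lines. The p-values thus measure the spread between these samples, not between separately derived lines.

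The recovered reads were also tested with edgeR 4.0.16 (TMM, quasi-likelihood) and with DESeq2 1.42.0. edgeR called 1181 genes higher and 743 lower in HRA against parental cells, 1372 and 1480 in HRD against parental cells, and 1761 and 2039 in HRD against HRA cells. Further alternatives were a pseudocount of 10, no filter, a mean of at least 50, fits of 2 lines only, a replicate block, and leaving out libraries.

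Same-numbered HRA and parental libraries correlated in their deviations at 0.22, 0.38 and 0.14 over genes, and for this the number was taken as a block there. Libraries of different numbers were not correlated for comparison, so these values do not establish a pairing. HRD and parental libraries (−0.08, 0.26, 0.29) and HRD and HRA libraries (−0.03, 0.41, 0.23) were not taken as paired, though replicate 2 correlated at 0.26 and 0.41. Without a block, a shift of replicate 2 shared by the lines enters the SE. For NDRG1 in HRD against parental cells the SE was 0.57 without the block and 0.19 with it. Promoter sequences, chromosomes and the gene order came from RefSeq (GRCh38.p14), matched by symbol for 30 of 33 tested members' promoters. Members called in a comparison, or with replicate 2 outside both other replicates in all lines, are given library by library, and non-members are named from fixed lists. The members and lists were chosen with earlier results of these data known.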

Additional observations from a re-analysis of the deposited data

Results flagged for a closer look

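The difference between the resistant lines in PKM was flagged because PKM was the only member called in that comparison. It was 1 of 33 tested members higher (3.03%) and 0 were lower, against 13.9% and 16.2% of all tested genes. PKM averaged 52487 ± 6918 normalized reads in HRD cells and 33605 ± 683 in HRA cells (SD, n = 3 each), a log2 difference of 0.64 ± 0.12 (SE) with an adjusted p of 0.00301 in limma with Benjamini-Hochberg adjustment. All 3 HRD libraries were above all 3 HRA libraries. Against parental cells, PKM was 0.43 ± 0.12 in HRD and −0.21 ± 0.12 in HRA cells.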

How the results depend on the processing

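The count of 27 members above both other replicates in replicate 2 stayed between 27 and 30 with a pseudocount of 10, TMM scaling or 1 line left out. Without the HRD line 1 member, PFKP, lay below both. edgeR, DESeq2, a pseudocount of 10 and a mean of at least 50 left all 6 counts of members called between lines unchanged. With no filter, 0 members were lower in HRA against parental cells, against 607 of all 20637 genes. With only the 2 lines compared, 1 member, SLC16A3, was higher in HRA against parental cells, 0 were higher in HRD against parental cells, and 3, PKM, BHLHE40 and VEGFA, were higher in HRD against HRA cells. In that setting 1281 of all 12569 tested genes were higher in HRA against parental cells. The same count was 979 in HRD against parental cells and 1749 in HRD against HRA cells.

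With the replicate number as a block, 8 members were higher in HRA against parental cells, 7 were higher and 4 lower in HRD against parental cells, and 5 were higher and 4 lower in HRD against HRA cells. In HRD against parental cells BHLHE40, GPI, NDRG1, P4HA1, PFKFB3, PKM and SLC2A3 were higher, and EGLN1, ENO2, HK2 and PGAM1 lower. In HRD against HRA cells ALDOA, BHLHE40, PGK1, PKM and VEGFA were higher, and GAPDH, HK1, PDK1 and PGAM1 lower. In the 2 comparisons with HRD cells the numbers were not taken as a pairing. The blocked shares of all tested genes were 13.9% higher and 15.1% lower in HRD against parental cells, and 18.0% and 19.2% in HRD against HRA cells.

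When 1 library, or replicate 2 of all lines, was left out, members called ranged from 0 to 1 higher and 0 to 2 lower in HRA against parental cells, from 0 to 2 higher and 0 to 1 lower in HRD against parental cells, and from 1 to 2 higher and 0 to 3 lower in HRD against HRA cells. Leaving out 1 library turned the sign of 1 to 10 of the 33 tested members in HRA against parental cells, 2 to 9 in HRD against parental cells and 1 to 10 in HRD against HRA cells. Leaving out replicate 2 of all lines turned 3, 6 and 3, and 0 of the turned values passed in either fit. Among the genes named for a difference between lines, SLC2A3 was −0.13 in HRD against parental cells without HRD replicate 2, in a range up to 1.46, and ALDOC was 0.19 and 0.02 in HRD against HRA cells without HRA replicate 2 and without HRD replicate 1, in a range down to −1.71. The cause was not tested. SLC16A3, PGAM1 and ADM were the 3 lower without HRD replicate 2, and VEGFA joined EGLN1 without parental replicate 1. In HRD against parental cells PKM was joined by PFKL without HRD replicate 1 and by BHLHE40 without parental replicate 2. Over all tested genes, the same omissions gave 481 to 950 higher and 231 to 589 lower in HRA against parental cells (1148 and 767 with all libraries), 740 to 1335 and 730 to 1564 in HRD against parental cells (1350 and 1513), and 765 to 1513 and 1060 to 1871 in HRD against HRA cells (1749 and 2038). The block gave 1202 genes lower in HRA against parental cells, where the fit without it gave 767. In the main fit, which has no replicate term, replicate 2 stood far from the others. With 3 libraries a line, differences in genes such as PFKFB4 (SE 1.08) were then not detectable unless large. The SE of PFKFB4 was 0.34 with the block and 0.41 without replicate 2.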
